A study of Brassica oleracea var. capitata with 6 samples.

Results

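The genes described here are those whose Bolbase ID numbers lie on either side of the interval to which *NWGL*, the locus of the non-wax glossy (*nwgl*) phenotype of cabbage, was fine-mapped. They were taken as *Bol018400* to *Bol018600* without *Bol018493* to *Bol018508*, the 16 ORFs of the mapped interval, which leaves 185 ID numbers, 93 below the interval and 92 above it. Of these, 151 were listed in the gene table, 72 below and 79 above, among 31497 listed genes and new loci in all. The rule uses ID numbers alone. The order of ID numbers was taken as the order along the sequence. The study's gene map lists the ORFs of the interval in ID order. It ends with *Bol018508* at the end of chromosome C08, so on that map no ORF of C08 follows. The ID numbers above the interval are therefore taken as flanking by number alone, and where they lie in the genome was not tested here.

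Cuticular wax is a coat of very long chain fatty acids and their derivatives on the leaf surface, and alkanes, made by CER1 with CER3, are a main component of it in many plants. A mapped locus is inherited together with the genes around it. Expression along a chromosome segment can change together when the segment is deleted, duplicated or marked as a block by DNA methylation or chromatin marks, while a change in a single promoter usually touches 1 gene. Whether the neighbours of a mapped interval differ in level between mutant and wild-type is therefore a usual question beside the candidate gene itself.

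The *nwgl* group was 3 libraries from leaves of plants with the glossy phenotype, a dominant trait found in the inbred line G287. They were compared with 3 libraries from leaves of plants labelled wild type. The inbred line of the wild-type plants is given neither in the labels nor in the study's RNA methods. A difference of line and one of the *nwgl* locus therefore cannot be told apart here. All leaves were collected at the harvesting stage, all libraries were made as directional RNA-seq libraries from total RNA, and no treatment was applied. The replicates are stated to be biological, but whether a *nwgl* plant was homozygous is not given in the sources used here. The values were FPKM as the authors deposited them, that is, fragments assigned to a gene, scaled for its transcript length and for the size of the library. The IDs are not paired with gene names in the table, and 0 of the ID numbers matched the RefSeq gene table, so the members are named by ID, their roles are not given, and the leaf label could not be checked against named leaf markers.

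The libraries differed in how their FPKM was spread over genes. The 10 genes of highest FPKM held 22.7% of the summed FPKM in *nwgl* replicate 2, the lowest share, and 57.3% in *nwgl* replicate 3, the highest. Total counts are not given by FPKM, but the worth of 1 fragment among low values put the depth of the *nwgl* libraries at 0.948 to 1.02 of that of wild-type replicate 1, and wild-type replicate 2 at 0.936, whereas no clear value was found for wild-type replicate 3. Wild-type replicate 3 had the lowest value of the 6 libraries in 45 of 114 members tested and in 33.2% of all genes tested. The calls, the counts of members whose genotypes do not overlap, the window medians and the fold changes of the members chosen by rule were therefore also taken without each library in turn.

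A larger share of the flanking ID numbers was listed (81.6%) than of other Bol ID numbers (64.9%). A gene was tested if its mean FPKM over the 6 libraries was at least 0.1, which 114 of the 151 listed members reached, 59 below the interval and 55 above it. The other 37 had means under 0.1 FPKM, and none of them exceeded 0.315 FPKM in any library. Among the members tested, 19 had a mean of at least 10 FPKM, 67 one between 1 and 10, and 28 one under 1. The median of their mean FPKM was 3.36, against 3.53 for the other Bol IDs tested. Values above 0 in all libraries were listed for 102 of the 114. No member tested was at 0 in all libraries of a genotype.

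The most abundant member, *Bol018526*, lay above the interval and was at 93.7, 170.8 and 71.4 FPKM in the *nwgl* replicates, against 509.5, 135.6 and 89.0 in the wild-type replicates. Wild-type replicate 1 stood far above the other libraries, and the values of the genotypes overlapped. *Bol018414*, at the far end below the interval, had 30.1, 71.0 and 33.7 FPKM in *nwgl* and 79.9, 60.8 and 21.9 FPKM in wild-type leaves. *Bol018539* and *Bol018548* above the interval had the same order among the wild-type libraries, replicate 1 highest and replicate 3 lowest. The wild-type values spanned the *nwgl* values in these 2 genes. *Bol018539* had 28.1, 48.1 and 25.9 FPKM in *nwgl* and 63.8, 40.7 and 12.3 in wild-type, and *Bol018548* had 17.0, 29.0 and 22.8 FPKM in *nwgl* and 49.8, 27.3 and 7.22 in wild-type. *Bol018448* below the interval completed the 5 of highest mean, with 69.9, 49.98 and 43.1 FPKM in *nwgl* against 12.97, 60.6 and 9.85 in wild-type leaves. Here wild-type replicate 2 lay among the *nwgl* values. The log2 fold change of this gene was 1.42, but its adjusted p missed the threshold (limma adjusted p = 0.337). The log2 fold changes of the other 4 lay between -0.81 and 0.06, with adjusted p from 0.721 to 0.988 in limma.

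Differences between *nwgl* and wild-type were fitted with limma on log2(FPKM + 0.1) over all 24332 genes with a mean of at least 0.1 FPKM. The call required a p under 0.05 after Benjamini-Hochberg adjustment over these genes and a fold change past 1 in size on the log2 scale. A fold change on this scale understates the change of genes near 0.1 FPKM. Of the 114 members, 2 were called, or 1.75%, against 4.89% of all genes tested and 4.68% of the other Bol IDs tested. Both were called higher in *nwgl* leaves, as were 3.69% of all genes tested. Lower calls numbered 0, where 1.20% of all genes were called lower. At an unadjusted p under 0.05, limma gave 14 members (12.3%, against 16.2% of all genes), 11 higher and 3 lower in *nwgl*, where 10.3% of all genes were higher and 5.96% lower at this p. No setting and no left-out library brought a lower member past the thresholds. In 17 members (14.9%) all libraries of one genotype lay above all of the other, 10 higher and 7 lower in *nwgl*, against 20.3% of all genes tested, 11.8% higher and 8.54% lower.

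As a group the flanking genes had a median log2 fold change of -0.07, with quartiles at -0.42 and 0.44, beside a median of -0.04 and quartiles at -0.45 and 0.46 over all genes tested. Of the members, 51 (44.7%) were higher in *nwgl*, against 47.5% of all genes. A log2 fold change of 1 or more in size was found in 22.8% of the members, against 23.5% of all genes. The spread between libraries of a genotype was similar too, with a median standard deviation on the log2 scale of 0.65 among the members and 0.61 among all genes. These values describe the list and were given no test of their own.

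**Figure D1:**
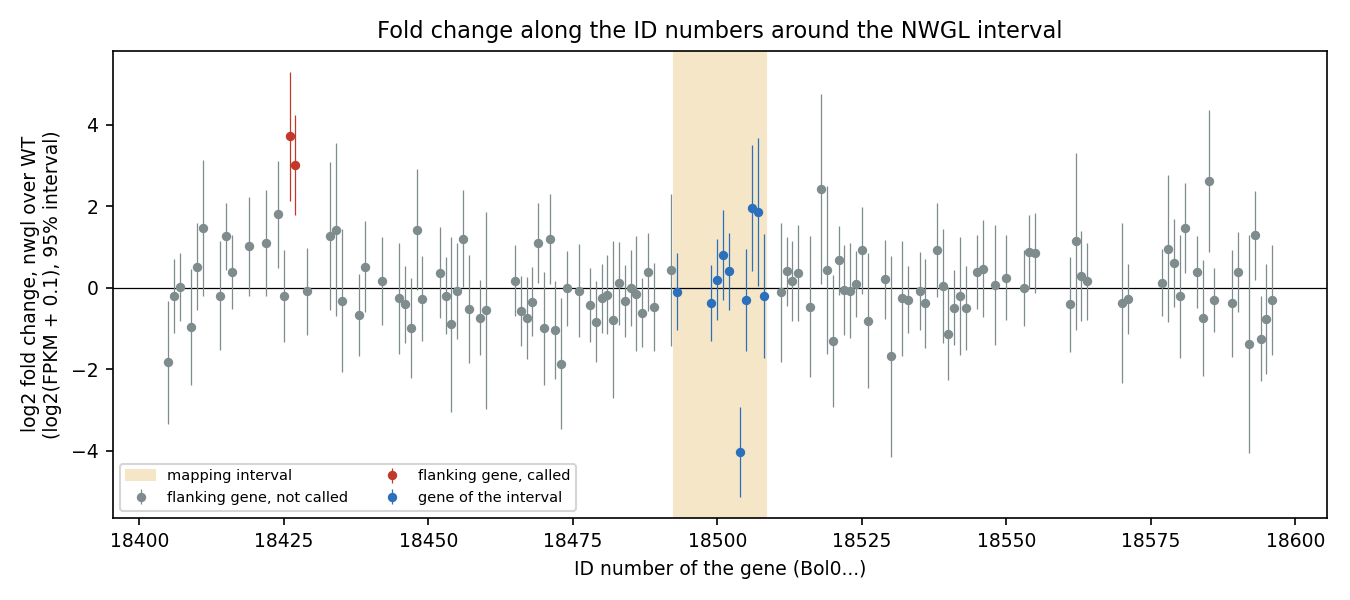
Log2 fold change of *nwgl* over wild-type leaves, with its 95% interval from limma, for each tested gene in order of ID number; the shaded band is the mapped interval, red points are the 2 called flanking genes, grey points the other flanking genes and blue points the genes of the interval. Most flanking genes lie within 1 of 0, the 2 called genes stand next to each other at 3.72 and 3.01, and the lowest blue point, at -4.02, is *Bol018504*.

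For a view of other stretches of the genome, the other Bol IDs tested were divided in ID order into 181 successive runs of 114 genes. The number of called genes in a run had a median of 5 and ranged between 0 and 17. In 32 of the 181 runs it was 2 or less, as in the flanks. The share of genes whose genotypes do not overlap was at or under that of the flanks in 28 runs, and its median was 19.3%. The run medians of the log2 fold change extended from -0.24 to 0.20, with the -0.07 of the flanks within this range. Runs of 185 ID numbers gave a like position, with 33 of the 220 runs that held a tested gene at or under the called share of the flanks. The runs were used as a description only, since genes of a run are not independent of each other.

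**Figure D2:**
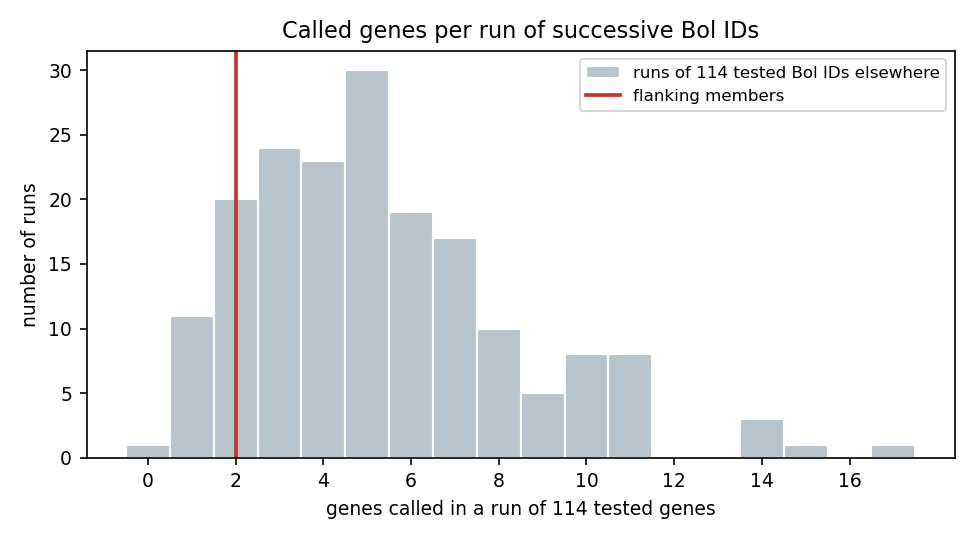
Number of called genes (x axis) in each of 181 runs of 114 successive tested Bol IDs outside the flanks, as a count of runs (y axis); the red line marks the flanking members. The line stands at 2 called genes, left of the median of 5, and 32 runs had as few or fewer.

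The 2 called members were neighbours by ID, 66 and 67 ID numbers below the interval. *Bol018426* was at 4.21, 2.32 and 0.575 FPKM in the *nwgl* replicates, against 0.0669, 0 and 0.0858 in the wild-type replicates. *Bol018427* had 0.569, 1.31 and 0.570 FPKM in *nwgl*, against 0.0208, 0 and 0 in wild-type leaves. Each *nwgl* library lay above each wild-type library in both genes, and all wild-type values were near 0. All wild-type values of the pair were under 0.1 FPKM, so both genes passed the filter on low values only through *nwgl*, where they are high. Without that filter *Bol018426* was not called (limma adjusted p = 0.0640), while *Bol018427* was (limma adjusted p = 0.0234). In whole leaves, fewer cells with a transcript and less of it per cell cannot be told apart. On the log2 scale *Bol018426* rose by 3.72 with a standard error of 0.70 (limma adjusted p = 0.0175), and *Bol018427* by 3.01 with a standard error of 0.55 (limma adjusted p = 0.0146). An exact two-sided permutation test gave p = 0.1 for each, the smallest that 3 libraries against 3 allow.

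The sizes of these changes depend on the pseudocount because the wild-type values are near the floor. With a pseudocount of 1 in place of 0.1 neither gene was called, at 1.52 (adjusted p = 0.0664 from limma) and 0.83 (adjusted p = 0.0494, the fold under the threshold), and with 0.01 both were, at 5.42 and 5.71. With each library left out in turn, *Bol018427* was called in 4 of 6 limma fits and *Bol018426* in 2, with adjusted p up to 0.0621 and 0.0961. Without *nwgl* replicate 1 or *nwgl* replicate 2 the flanks held 0 of 114 called members, without *nwgl* replicate 3 they held 4, and without wild-type replicate 1 or 2 they held 1. The calls among all 24332 genes tested moved as well, from 1190 with all libraries. They came to 381, 474 and 1269 without *nwgl* replicates 1, 2 and 3, and to 568 and 759 without wild-type replicates 1 and 2. Whether the pair share sequence, so that reads could be placed on either, was not tested.

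The IDs around this pair were looked at after their values were seen. From *Bol018418* to *Bol018442*, 9 of 13 members tested were higher in *nwgl*, against 47.5% of all genes tested. The median log2 fold change of the 13 was 1.02. *Bol018424* had 0.997, 1.29 and 0.294 FPKM in *nwgl* against 0.139, 0.114 and 0.175 in wild-type leaves, without overlap, but at a log2 fold change of 1.81 it was not called (limma adjusted p = 0.138) except without *nwgl* replicate 3. *Bol018422* had 4.16, 4.32 and 1.56 FPKM in *nwgl* against 0.672, 2.56 and 1.44 in wild-type leaves. *Bol018419* had 11.98, 12.8 and 4.497 FPKM in *nwgl* against 2.62, 7.47 and 4.12 in wild-type leaves. In both of these genes the *nwgl* replicates 1 and 2 were above all wild-type libraries and *nwgl* replicate 3 was among them. *Bol018425*, the number before the called pair, had 0.695, 0.981 and 0.346 FPKM in *nwgl* and 1.05, 0.601 and 0.613 in wild-type leaves. *Bol018429*, 2 numbers past the called pair, had 3.31, 5.85 and 3.99 FPKM in *nwgl* and 7.15, 5.37 and 2.42 in wild-type leaves. Genes with overlapping values and a log2 fold change near 0 thus stood among those with higher values in *nwgl*. The median of this stretch stayed above 0 under each setting and with each library left out, at between 0.44, without wild-type replicate 3, and 1.40, without wild-type replicate 2. Leaving out *nwgl* replicate 1 gave 0.59, and leaving out wild-type replicate 1 gave 0.64. The stretch was picked from these same libraries and its 13 members include the called pair, so these fits are not a test of it.

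Among members that were not called, 8 had an unadjusted p under 0.05 in limma, a log2 fold change of 1 or more in size and no overlap between genotypes (7.02% of the members, against 8.69% of all genes tested), 6 of them higher in *nwgl*. *Bol018415*, 78 ID numbers below the interval, had 27.6, 22.9 and 18.6 FPKM in *nwgl*, against 8.48, 11.4 and 8.59 in wild-type leaves. The lowest *nwgl* value was well above the highest wild-type value, and the libraries of each genotype lay close together. The log2 fold change was 1.27 with a standard error of 0.37, but the adjusted p missed the threshold (limma adjusted p = 0.0939). The gene was called with median-of-ratios scaling of the libraries (limma adjusted p = 0.0426). *Bol018585*, far above the interval, had 0.696, 2.73 and 0.284 FPKM in *nwgl* and 0.162, 0 and 0.0406 in wild-type leaves. Here the log2 fold change was 2.63 with a standard error of 0.77 (limma adjusted p = 0.0992), and the gene was called without *nwgl* replicate 3. Its wild-type mean was 0.067 FPKM, so it passed the filter on low values only through *nwgl*, where it is high. Without that filter the limma adjusted p was 0.189. With a pseudocount of 1 the log2 fold change was 0.917 (limma adjusted p = 0.227). With *Bol018424* these were the 3 uncalled members of lowest p. The 2 of the 8 with lower values in *nwgl* were *Bol018405* and *Bol018594*, at the outer ends of the flanks. *Bol018405* had 0.782, 2.11 and 0.211 FPKM in *nwgl* against 2.21, 3.96 and 2.80 in wild-type leaves, and *Bol018594* had 0.311, 0.197 and 0.261 FPKM in *nwgl* against 0.940, 0.554 and 0.764 in wild-type leaves.

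**Figure D3:**
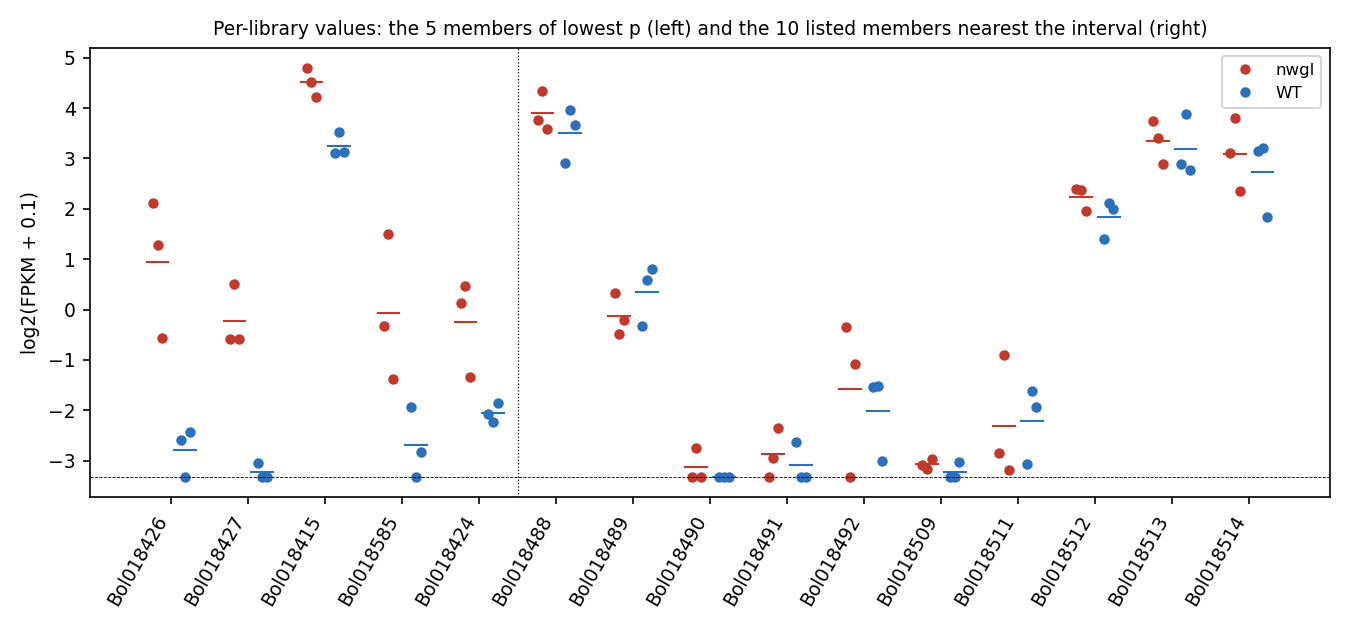
Log2(FPKM + 0.1) of each library, *nwgl* in red left of wild-type in blue, with the mean of each genotype as a bar; left of the dotted line the 5 members of lowest p, right of it the 10 listed members nearest the interval, and the dashed line is 0 FPKM. The genotypes are apart in the 5 on the left, where wild-type values of *Bol018426* and *Bol018427* lie at or near the dashed line, and overlap in each of the 10 on the right.

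Next to the interval by ID number, the values of the genotypes overlapped. The 5 listed members nearest below it were *Bol018488* to *Bol018492*, and the 5 nearest above it were *Bol018509* and *Bol018511* to *Bol018514*. Of these 10, 7 were expressed highly enough to be tested and 0 were called, with adjusted p from 0.732 to 0.976 in limma and 0 at an unadjusted p under 0.05. *Bol018492*, the last ID before the interval, had 0.691, 0 and 0.373 FPKM in *nwgl* and 0.246, 0.249 and 0.0240 in wild-type leaves. *Bol018488*, the most abundant of the 5 below, had 13.6, 20.2 and 11.9 FPKM in *nwgl* and 7.41, 15.5 and 12.5 in wild-type leaves, a log2 fold change of 0.39 with a 95% interval from -0.56 to 1.33. The genotypes overlapped in both genes, with the highest value of each in a *nwgl* library. Above the interval, *Bol018512* had 5.19, 5.08 and 3.78 FPKM in *nwgl* and 2.54, 4.23 and 3.91 in wild-type leaves, with a log2 fold change of 0.40 and a 95% interval from -0.45 to 1.25. *Bol018513* had 13.2, 10.5 and 7.34 FPKM in *nwgl* and 7.31, 14.7 and 6.75 in wild-type leaves. For *Bol018514* the values were 8.56, 13.9 and 5.01 FPKM in *nwgl* and 8.76, 9.15 and 3.46 in wild-type leaves. The 95% interval of *Bol018513* was -0.82 to 1.14 and that of *Bol018514* was -0.81 to 1.53, so changes within these intervals were not excluded.

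The interval itself held 1 called gene. *Bol018504*, which the study's gene map annotates as an aldehyde decarbonylase of the CER1 kind, had 5.20, 5.09 and 5.97 FPKM in *nwgl*, against 114.5, 142.0 and 44.0 in wild-type leaves. Of the 16 ORFs, 11 were listed and 10 tested. In limma, 3 of the 10 (30.0%) had an unadjusted p under 0.05, against 16.2% of all genes tested. The genotypes did not overlap in 3 (30.0%), against 20.3% of all genes. *Bol018506* and *Bol018507* were higher in *nwgl*, at log2 fold changes of 1.96 and 1.86, but were not called (limma adjusted p = 0.170 and 0.295). No flanking gene had a log2 fold change as low as the -4.02 of *Bol018504*. The lowest among the members was -1.86, for *Bol018473* below the interval, with 0.141, 0.660 and 0.532 FPKM in *nwgl* and 2.20, 3.61 and 0.549 in wild-type leaves, where wild-type replicate 3 was within the *nwgl* values (adjusted p = 0.224 from limma).

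Over the 50 ID numbers nearest the interval on each side, limma called 0 of 70 members tested, against 4.89% of all genes. An unadjusted p under 0.05 was reached by 5 of the 70, against 16.2% of all genes. Below the interval, 9 of 37 members were higher in *nwgl*, against 47.5% of all genes tested. The median log2 fold change there was -0.27, against -0.04 over all genes tested. It was between -0.52, without wild-type replicate 3, and -0.09, without wild-type replicate 1, and the number of higher members was 6 and 17 in these fits. Leaving out *nwgl* replicate 3 gave 15 higher members, and leaving out wild-type replicate 2 gave 14. Leaving out wild-type replicate 3 moved the median of all genes to -0.19 as well, and leaving out wild-type replicate 1 moved it to 0.01. How far the median varies over stretches of this size elsewhere was not tested. Above the interval, 17 of 33 members were higher, and the median was 0.04. Within the 25 ID numbers nearest below, *Bol018469* and *Bol018471* were among the 8 uncalled genes without overlap, both higher in *nwgl*, while *Bol018470* and *Bol018472* between and beside them had log2 fold changes of -0.99 and -1.04, also uncalled. *Bol018469* had 9.83, 14.4 and 11.2 FPKM in *nwgl* against 3.24, 8.95 and 5.35 in wild-type leaves, and *Bol018471* had 6.66, 10.7 and 8.78 FPKM in *nwgl* against 5.48, 5.14 and 1.74 in wild-type leaves. Members next to each other by ID thus had values on opposite sides of 0.

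In the whole flank above the interval, limma called 0 of 55 members, against 4.89% of all genes, and 5 (9.09%) had an unadjusted p under 0.05, against 16.2%. Without *nwgl* replicate 3 it called 1, *Bol018585*, and with the replicate number as a block it called 1, *Bol018518*. Below it the share called was 3.39% (2 of 59), and the genotypes were apart in 18.6% of the members there, against 10.9% above and 20.3% of all genes tested. Whether the sides differ from each other was not tested. By windows of 25 ID numbers, the median log2 fold change was -0.25 and -0.34 in the nearest and second windows below, 1.02 in the third, and 0.02 in the outermost. Above the interval it was 0.02, 0.04, 0.22 and -0.34 from the nearest window to the outermost. No order with distance from the interval could be read from these medians.

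Members differed widely in how steady they were between libraries of a genotype. *Bol018577* had 16.8, 22.3 and 17.3 FPKM in *nwgl* and 15.1, 20.6 and 16.0 in wild-type leaves, and *Bol018524* had 2.40, 3.74 and 3.21 FPKM in *nwgl* and 2.86, 2.94 and 2.81 in wild-type leaves. Their standard deviations within a genotype on the log2 scale, 0.23 and 0.22, were the lowest among members with a mean of at least 1 FPKM, and they were picked for this after the values were seen. At the other end, *Bol018592* had 0.482, 4.13 and 0.227 FPKM in *nwgl* and 1.78, 13.1 and 0.468 in wild-type leaves, a standard deviation of 2.12. *Bol018518*, 10 ID numbers above the interval, had 14.8, 51.0 and 10.5 FPKM in *nwgl* and 3.11, 19.6 and 0.707 in wild-type leaves. In both genes replicate 2 was the highest library of each genotype. The log2 fold change of *Bol018518* was 2.43, its standard deviation was 1.84, the genotypes overlapped, and it was not called (adjusted p = 0.285 from limma). Within each replicate number its *nwgl* library was above its wild-type library, and it was called with the replicate number as a block.

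**Figure D4:**
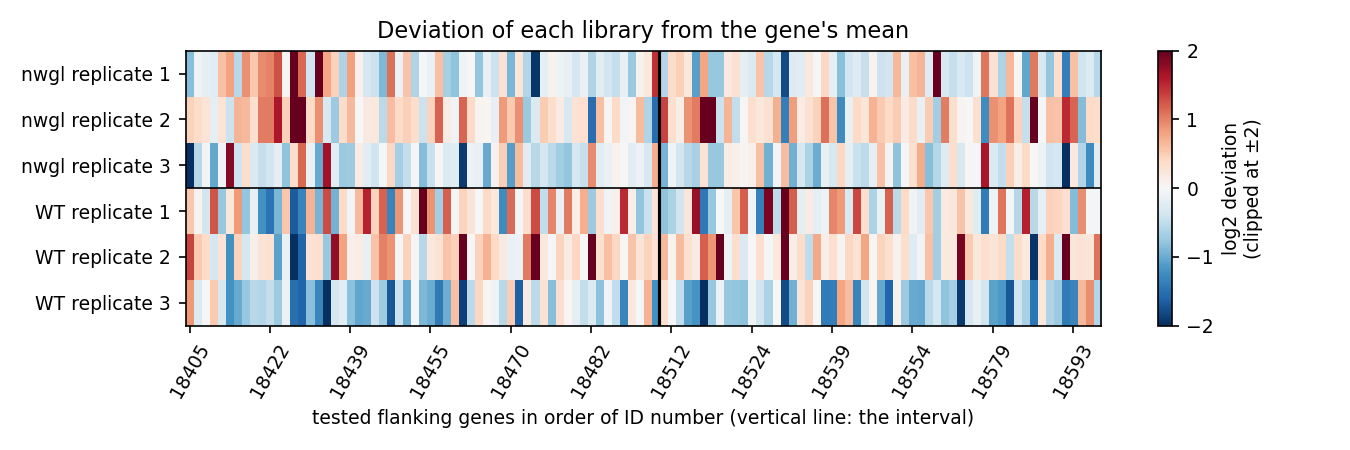
Deviation of each library (rows, *nwgl* above wild-type) from the mean of the gene on the log2(FPKM + 0.1) scale, for the 114 tested flanking genes in order of ID number (columns), with colour clipped at 2 in size and a vertical line at the interval. Wild-type replicate 3 is mostly blue, being the lowest library in 45 genes, and *nwgl* replicate 2 and wild-type replicate 2 are mostly red, being the highest in 30 and 31. Over all genes tested, wild-type replicate 3 was the lowest in 33.2%, and the other 2 named libraries were the highest in 30.3% and 27.1%.

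The flanking genes deviated by library in the same directions as the rest of the table, apart from wild-type replicate 1, whose median over all genes was near 0. The median deviation of a library from the mean of each gene was -0.15, 0.36 and -0.23 over the members in the *nwgl* replicates and 0.12, 0.29 and -0.57 in the wild-type replicates. Over all genes tested it was -0.13, 0.32 and -0.19 in the *nwgl* replicates and -0.0014, 0.28 and -0.37 in the wild-type replicates. The highest value of a member fell in *nwgl* replicate 2, wild-type replicate 1 or wild-type replicate 2 in 30, 29 and 31 of the 114 members. Over all genes tested these libraries were the highest in 30.3%, 21.7% and 27.1%.

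The precision limits what can be said of genes that were not called. The 95% interval of the log2 fold change had a median half-width of 1.11 among the members, against 1.14 over all genes tested. It lay within -1 and 1 in 6 members (5.26%, against 6.74% of all genes tested), *Bol018407*, *Bol018474* and *Bol018485* below the interval and *Bol018524*, *Bol018553* and *Bol018577* above it. For the other 108, which include the 2 called members, the interval reached past -1, past 1 or past both. A difference of at least 1 on the log2 scale was thus not excluded in 1 direction or in both.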

How the data were processed

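Leaf RNA of *nwgl* and wild-type plants was sequenced in 3 biological replicates of each. The authors filtered the reads, aligned them with HISAT2 to the cabbage genome of Bolbase, assembled and quantified them with StringTie 1.3.1, and deposited FPKM values of each gene without pooling the replicates. Genes at 0 in all libraries are not in the table. The counts of the study's own test, DESeq, were not used here, so limma 3.58.1 in R 4.3.3 (lmFit, eBayes with trend) was applied to log2(FPKM + 0.1), with the study's thresholds kept. FPKM is not corrected for a few genes that take many fragments, so other scalings were tried. Standard errors and 95% intervals are limma's. The fit was tested on simulated data, with changes put only into genes well above the lowest values. Genes near 0 FPKM in 1 genotype, such as the called pair, were not covered by it. Tables were handled in Python 3.11.15 with pandas 2.3.3 and numpy 2.4.6, and figures were drawn with matplotlib 3.10.9. The members and lists were chosen with earlier results of these data known. Named members are the called ones, the 3 uncalled ones of lowest p whose genotypes do not overlap, the 5 listed nearest the interval on each side and the 5 of highest mean FPKM; others are named as chosen after their values were seen, among them the remaining uncalled ones without overlap, the steadiest and most variable, and the IDs around the called pair. Alternatives were other pseudocounts, filters, scalings and eBayes options, a replicate block, Bol IDs alone, narrower windows and leaving out each library; those for the medians of ID windows, for calls above the interval and for lower calls were chosen after seeing the data. The lncRNA table was not used, since its transcripts carry no coordinates. No sequence is shown because none of the ID numbers matched the RefSeq table.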

Additional observations from a re-analysis of the deposited data

How the results depend on the processing

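The number of called members stayed within 0 to 4. With a pseudocount of 1 or a mean FPKM of at least 1 it was 0, with no filter on low values 1, and within 50 or 25 ID numbers of the interval 0. With a library left out it was 0 to 4. Called genes of the whole table came to 777 with a pseudocount of 1, 761 with no filter, 735 with a mean FPKM of at least 1 and 381 to 1269 with a library left out. The members whose genotypes do not overlap came to 11 of 86 with a mean FPKM of at least 1, beside 18.1% of all genes. They came to 26 of 114 with median-of-ratios scaling and also with quantile normalization, beside 24.4% and 25.6% of all genes. With a library left out they came to 20 to 32 of 114, beside 23.6% to 32.6% of all genes. The median log2 fold change of the members was -0.30 to 0.16 with a library left out and moved by less than the spread between libraries under the other settings. The causes were not tested. Directions of uncalled members near 0 turned. *Bol018511* was at 0.0165 with a pseudocount of 1. With a library left out, the log2 fold change was -0.81 to 0.33 for *Bol018511*, -0.18 to 1.31 for *Bol018492*, -0.0443 to 0.51 for *Bol018513*, -0.0873 to 0.73 for *Bol018514*, -0.74 to 0.19 for *Bol018414*, -0.64 to 0.55 for *Bol018539* and -0.72 to 0.67 for *Bol018548*.

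The replicate numbers are shared between the genotypes, and gene by gene the deviations of same-numbered libraries from their genotype means correlated weakly (-0.02, 0.11 and 0.16 for numbers 1, 2 and 3). Since not every pair was above 0.1 and no source states that a number marks shared plants or days, they were not taken as pairs, although the median deviation over all genes was highest in replicate 2 and lowest in replicate 3 of each genotype. With the replicate number as a block, 3 members (the called pair and *Bol018518*) and 1314 genes of the whole table were called, and not every library correlated best with its own number.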
